A study of Mus musculus with 16 samples.

Results

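The genes described are those of the mouse MHC class II antigen presentation machinery together with their transactivator. They are the class II chains H2-Aa, H2-Ab1 and H2-Eb1, the peptide exchange chains H2-DMa and H2-DMb1, the invariant chain Cd74, and Ciita. The genes were chosen by symbol and matched to Ensembl gene identifiers, which gave 7 genes of the 55401 in the files, and all 7 passed the filter on low counts. The libraries are poly(A) RNA-seq of cultured mouse T cells, 4 per group in 4 groups. The labels name a genotype, wildtype or PDH_Mutant, and a cell type, EFFECTOR or MEMORY, giving WT TE (libraries 1 to 4), TPdh-/- TE (libraries 5 to 8), WT TM (libraries 9 to 12) and TPdh-/- TM (libraries 13 to 16).

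TPdh-/- T cells lack pyruvate dehydrogenase, the mitochondrial enzyme complex that makes acetyl-CoA from pyruvate, because a Cre recombinase driven by Cd4 regulatory sequence removes a floxed part of Pdha1. In the methods the cells are OT-I T cells, whose transgenic receptor recognises a peptide of ovalbumin, from the spleens of male and female adult mice. All groups received that peptide, and IL-2 (TE) or IL-15 (TM) followed. The Cre acts mainly in cells of the T lineage, so that other cells of a TPdh-/- spleen can keep Pdha1. Whether the WT mice carried the Cre is not given in the sources used here. The methods describe enrichment of pan T, CD8+ and CD4+ cells to high purity with isolation kits, which would remove most B and myeloid cells, and whether the cultures for RNA-seq went through it is not given in the sources used here. The study describes discrete samples and a number of mice per condition that is not the number of libraries per group, and the labels tie no library to a mouse. P-values therefore measure only the spread between libraries.

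MHC class II molecules are heterodimers of an alpha and a beta chain that show peptides from the endocytic pathway to CD4+ T cells. H2-Aa and H2-Ab1 encode the alpha and beta chains of I-A, and H2-Eb1 encodes the beta chain of I-E. Cd74, the invariant chain, escorts new class II molecules to endosomes and fills their groove, and the H2-DM heterodimer (H2-DMa with a beta chain) exchanges its last fragment for a peptide. Ciita is a coactivator that does not bind DNA itself: it is recruited by the RFX complex, CREB and NF-Y, which sit on the S-X-Y module upstream of these genes. Ciita is made constitutively in B cells and dendritic cells, and interferon gamma induces it in other cells. In the mouse, T cells are generally described as making little or no class II of their own, unlike activated human T cells, and they can take up class II from other cells.

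The class II chain and DM genes lie together on chromosome 17 (GRCm38): H2-DMa at 34119541-34139101, H2-DMb1 at 34153072-34160230, H2-Ab1 at 34257689-34269419, H2-Aa at 34282744-34287823 and H2-Eb1 at 34305867-34316674. RefSeq promoter entries (GRCm38.p6) matched 4 of the 7 genes, namely H2-Aa, H2-Eb1, H2-DMa and H2-DMb1. The pair of short motifs searched for stands for the X and Y boxes: GNAACT followed by ATTGG on the same strand, with their starts 20 to 45 bases apart, on either strand of the 250 bases before the start site. The pair was chosen after these sequences were seen, and a match is a description of letters and not a shown binding site. The sequences below are those parts of the promoters that hold the pair and lie outside annotated exons, shown because they are what RFX and NF-Y, and through them Ciita, would act on. Capitals mark GNAACT and ATTGG.
H2-Aa, chr17:34287837-34287934, minus strand: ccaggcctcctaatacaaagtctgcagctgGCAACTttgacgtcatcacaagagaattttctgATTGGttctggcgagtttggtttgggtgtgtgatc
H2-Eb1, chr17:34305746-34305842, plus strand: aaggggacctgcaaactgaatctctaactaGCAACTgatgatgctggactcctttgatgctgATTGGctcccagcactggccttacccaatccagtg
H2-Eb2, chr17:34325513-34325609, plus strand: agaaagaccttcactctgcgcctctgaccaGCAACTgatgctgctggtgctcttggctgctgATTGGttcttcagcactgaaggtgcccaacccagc

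The motif starts were 33 bases apart in H2-Aa and 32 bases apart in H2-Eb1 and in H2-Eb2, a class II beta chain gene outside the 7. H2-DMb1 also held the pair, 33 bases apart, with GNAACT at -94 and ATTGG at -61 from its start site. The other start positions were -81 and -48 in H2-Aa, -91 and -59 in H2-Eb1, and -132 and -100 in H2-Eb2. Among all 32851 promoter entries, 318 (0.968%) held the pair, while GNAACT alone was in 37.3% and ATTGG alone in 33.8%. Neither start site of H2-DMa held the pair in this window, nor did H2-DMb2, H2-Oa or H2-Ob.

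Total expected counts ranged from 53007257 to 73507566 per library, and 15277 genes were tested. Pdha1 as a whole gene was at 68.04 to 69.47 TPM in WT TE, 69.47 to 73.58 in TPdh-/- TE, 83.36 to 107.87 in WT TM and 73.31 to 76.81 in TPdh-/- TM. A gene total does not separate the floxed part from the rest, so it does not check the genotype labels. The 8 CD8 T cell markers examined were above 0 in every library. Library 12 stood apart from its group, differing from the other WT TM libraries by 53.7 to 70.3 (chi-square per degree of freedom over genes), against 9.13 to 15.9 among those 3. Library 5 differed from libraries 7 and 8 by 61.3 and 45.6 but from library 6 by 23.4, against 19.3 to 24.8 among libraries 6 to 8. Library 13 differed from libraries 14 to 16 by 19.2 to 43, against 16.1 to 23.1 among those 3. Values are in TPM, a transcript abundance scaled to each library that allows for gene length. Differences are log2 fold changes of counts from edgeR's quasi-likelihood test, each with the standard error of log2 CPM (counts scaled to the library total) between libraries, and a gene was called where its Benjamini-Hochberg adjusted p over all genes tested was under 0.05.

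In TM cells, all 7 genes were called higher in TPdh-/- than in WT, where 11.0% of the genes tested were called higher, 7.27% lower and 18.3% were called in either direction. The median log2 difference of the 7 was 1.81, beside 0.00 over all genes tested. In TE cells, 5 of 7 were called higher and none lower, against 17.3% of all genes called higher, 14.3% lower and 31.6% called in either direction. The 2 that were not called there were H2-Ab1 and Ciita. The median in TE was 1.11, beside 0.00 over all genes tested.

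**Figure D1:**
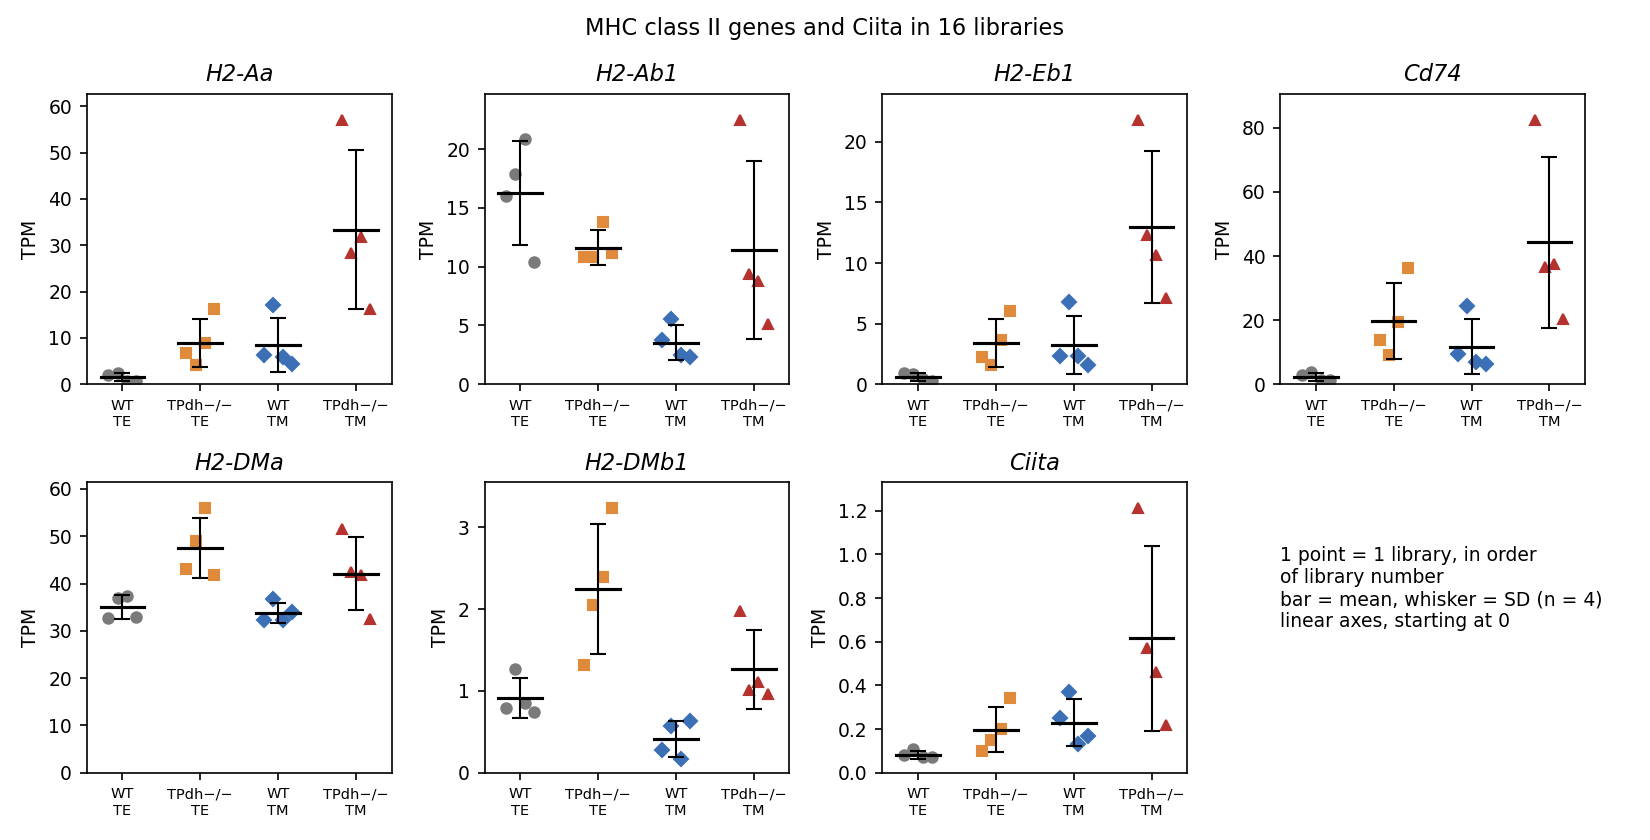
TPM of each gene (linear axes from 0) in the 16 libraries by group; 1 point is 1 library, the bar is the mean and the whisker the SD (n = 4). H2-Aa, H2-Eb1 and Cd74 have their lowest values in WT TE (0.69 to 2.44 TPM for H2-Aa) and their highest in TPdh-/- TM (16.21 to 57.05 TPM for H2-Aa), while H2-Ab1 is lowest in WT TM.

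H2-Aa, the I-A alpha chain, was at 2.10, 2.44, 0.78 and 0.69 TPM in the WT TE libraries. In TPdh-/- TE it was at 6.71, 4.17, 8.85 and 16.18 TPM, so that both TE groups were apart. The WT TM libraries held 6.34, 17.21, 5.83 and 4.42 TPM, and the TPdh-/- TM libraries 57.05, 28.40, 31.87 and 16.21 TPM. The only overlap between these TM groups came from WT library 10, which lay just above TPdh-/- library 16. The genotype difference was 1.97 ± 0.566 (SE) on the log2 scale in TM (3.92-fold, edgeR adjusted p = 0.0074, n = 4 per group, and 2.58 without library 10) and 2.40 ± 0.613 in TE (5.28-fold, adjusted p = 0.00287).

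H2-Eb1, the I-E beta chain, followed the same order at a lower level. Its values were 0.90, 0.85, 0.45 and 0.26 TPM in WT TE and 2.24, 1.60, 3.62 and 6.06 TPM in TPdh-/- TE. In TM they were 2.36, 6.82, 2.31 and 1.59 TPM in WT and 21.80, 12.35, 10.66 and 7.13 TPM in TPdh-/-. Neither pair of genotypes overlapped, as was so in either direction for 20.8% of all genes tested in TM and 33.1% in TE. The difference was 2.02 ± 0.603 in TM (4.06-fold, edgeR adjusted p = 0.00693, and 2.75 without library 10) and 2.50 ± 0.578 in TE (5.65-fold, adjusted p = 0.00317). H2-Ea-ps, annotated as the I-E alpha pseudogene, had 0 counts in all 16 libraries, which allows up to 0.00306 CPM over the libraries together (3 counts, counting error only). A defective I-E alpha gene is a known feature of C57BL/6 mice, in which the I-E beta chain has no partner.

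Cd74, the invariant chain, lies outside the class II cluster, on chromosome 18. In library 13 it was the highest of the 7 genes, and in libraries 14 to 16 it was second to H2-DMa. WT TE libraries held 3.03, 3.82, 1.28 and 1.32 TPM and TPdh-/- TE libraries 13.68, 9.22, 19.31 and 36.39 TPM. In TM, WT libraries held 9.34, 24.30, 7.04 and 6.32 TPM and TPdh-/- libraries 82.47, 36.63, 37.40 and 20.50 TPM. The TE groups were apart, and the TM groups overlapped through WT library 10 and TPdh-/- library 16. The difference of 2.91 ± 0.589 in TE (7.53-fold, edgeR adjusted p = 0.00068) was the largest genotype difference among the 7 genes. In TM it was 1.92 ± 0.588 (3.8-fold, adjusted p = 0.0111), and 2.54 without library 10.

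H2-Ab1, the I-A beta chain, did not follow its alpha chain. It was highest in WT TE, at 15.98, 17.87, 20.88 and 10.37 TPM, and at 10.80, 10.79, 13.80 and 11.15 TPM in TPdh-/- TE. Of those TE groups, only WT library 4 fell below the TPdh-/- values. In WT TM it was lowest, at 3.75, 5.57, 2.50 and 2.34 TPM, and in TPdh-/- TM it was at 22.49, 9.36, 8.75 and 5.16 TPM. The genotype difference in TM was 1.77 ± 0.495 (3.41-fold, edgeR adjusted p = 0.00172), with WT library 10 above TPdh-/- library 16 only. In TE it was -0.65 ± 0.231 (adjusted p = 0.134). The genotype effect in TM exceeded that in TE by 2.41 ± 0.546 (edgeR adjusted p = 0.00214), and H2-Ab1 was the only one of the 7 for which this interaction was called, where 15.6% of all genes were called (8.05% higher and 7.51% lower). For the other 6 the interaction lay between -0.99 (Cd74) and 0.70 (H2-DMb1) and was not called, with standard errors up to 0.835.

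H2-DMa, the DM alpha chain, was high in all 16 libraries (32.26 to 55.89 TPM). Its values were 32.75, 36.96, 37.44 and 32.85 TPM in WT TE and 43.18, 49.09, 55.89 and 41.89 TPM in TPdh-/- TE. WT TM libraries held 32.34, 36.73, 32.26 and 33.97 TPM, and TPdh-/- TM libraries 51.52, 42.45, 41.92 and 32.53 TPM. In TM, TPdh-/- library 16 lay among the WT libraries. The genotype differences were small, at 0.32 ± 0.117 in TM (1.24-fold, edgeR adjusted p = 0.0376) and 0.29 ± 0.107 in TE (1.22-fold, adjusted p = 0.0374). Each was lost when single libraries were left out (adjusted p up to 0.131 in TM without library 13 and up to 0.149 in TE without library 7). In the annotation 10.4% of the exonic bases of H2-DMa are shared with Brd2, and the library kit does not mark strand.

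H2-DMb1, a DM beta chain, was low but separated the genotypes in both cell types. It was at 0.79, 1.27, 0.85 and 0.74 TPM in WT TE and at 1.32, 2.05, 2.39 and 3.23 TPM in TPdh-/- TE. In TM it was at 0.28, 0.57, 0.17 and 0.63 TPM in WT and 1.98, 1.01, 1.11 and 0.96 TPM in TPdh-/-. The differences were 1.81 ± 0.322 in TM (3.51-fold, edgeR adjusted p = 0.000261) and 1.11 ± 0.242 in TE (2.16-fold, adjusted p = 0.00309). H2-DMb1 is a near copy of H2-DMb2, with 11.3% of its 100-base stretches of exonic sequence found identically in that gene, so the share of reads that RSEM gave to each is uncertain. H2-DMb2 was higher too, by 1.23 ± 0.501 in TM (adjusted p = 0.0164) and 0.93 ± 0.128 in TE (adjusted p = 0.0256).

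Ciita, on chromosome 16, was the lowest of the 7 in every library. It was at 0.08, 0.11, 0.07 and 0.07 TPM in WT TE and at 0.10, 0.15, 0.20 and 0.34 TPM in TPdh-/- TE. In TM it was at 0.25, 0.37, 0.13 and 0.17 TPM in WT and 1.21, 0.57, 0.46 and 0.22 TPM in TPdh-/-. The TM groups overlapped through TPdh-/- library 16, which was below WT libraries 9 and 10. The difference was 1.40 ± 0.563 in TM (2.64-fold, edgeR adjusted p = 0.0295) and 1.10 ± 0.397 in TE (adjusted p = 0.0887). The TM call was lost when library 9, 11, 12, 13 or 14 was left out, and without library 13 the difference was 0.94 (adjusted p = 0.137). Of the exonic bases of Ciita, 3.45% are shared with Dexi.

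**Figure D2:**
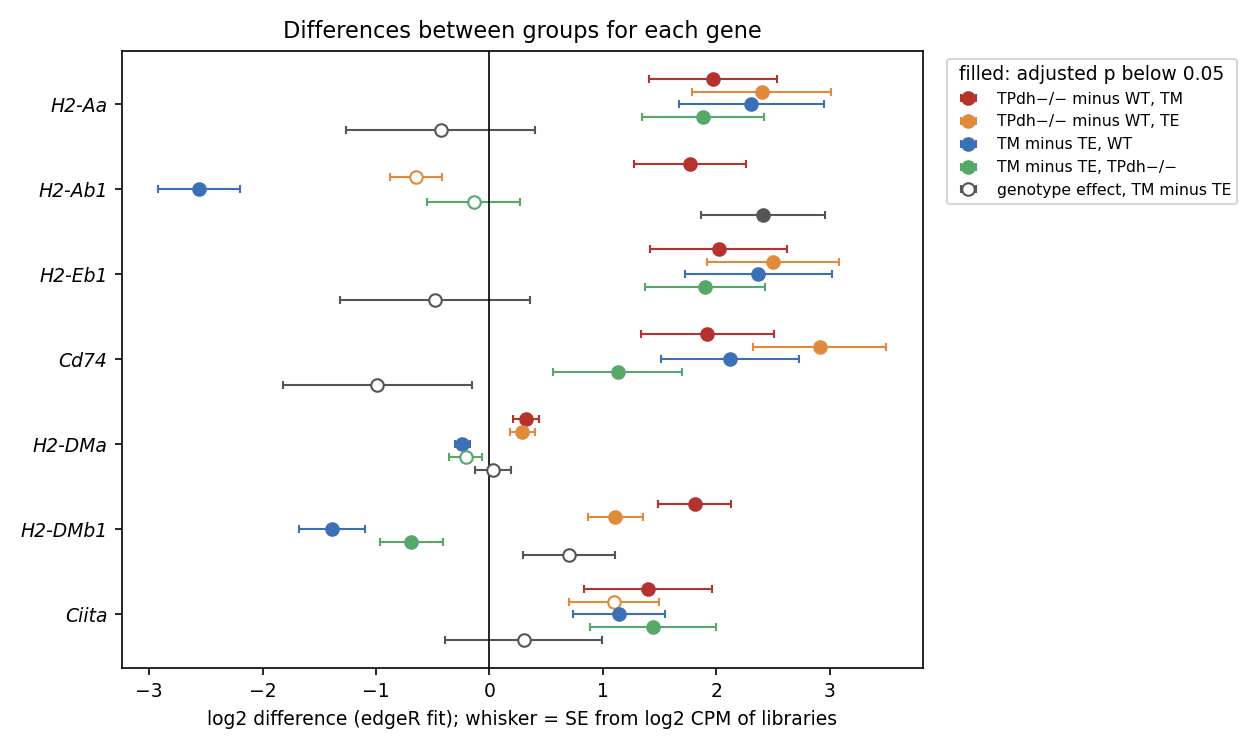
Log2 differences from edgeR for each gene in the 5 comparisons, with the SE of log2 CPM between libraries as whiskers; filled points have an adjusted p under 0.05. Both genotype differences of H2-Aa, H2-Eb1 and Cd74 lie between 1.92 and 2.91, and the interaction is filled for H2-Ab1 only.

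The comparison of memory with effector cultures divided the genes. In WT, 4 genes were called higher in TM (H2-Aa, H2-Eb1, Cd74 and Ciita) and 3 were called lower (H2-Ab1, H2-DMa and H2-DMb1), where 34.3% of all genes were called higher and 34.3% lower (68.6% in all). H2-Aa was higher by 2.31 ± 0.639 (edgeR adjusted p = 0.00119), H2-Eb1 by 2.37 ± 0.646 (adjusted p = 0.0015) and Cd74 by 2.12 ± 0.605 (adjusted p = 0.00257), and the WT groups did not overlap for any of these, as was so in either direction for 63.9% of all genes. Without library 10 these differences were 1.70 (adjusted p = 0.00705), 1.65 (adjusted p = 0.00965) and 1.51 (adjusted p = 0.0167). H2-Ab1 changed by -2.56 ± 0.359 (5.89-fold lower, adjusted p = 5.01e-06), so the alpha and beta chains of I-A moved in opposite directions. H2-DMb1 changed by -1.39 ± 0.292 (adjusted p = 0.000443). Ciita was higher by 1.14 ± 0.407 (adjusted p = 0.0417), a call that was lost without library 1, 3, 4, 7, 9 or 10 and was 0.74 without library 10 (adjusted p = 0.186). The change of H2-DMa, -0.24 ± 0.0659 (adjusted p = 0.0462), was -0.05 when log2 TPM was tested with limma in place of counts (adjusted p = 0.729).

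In TPdh-/- cells, 4 genes were called higher in TM than in TE, 1 was called lower and 2 were not called, where 33.0% of all genes were called higher and 34.7% lower (67.7% in all). H2-Aa was higher by 1.88 ± 0.537 (edgeR adjusted p = 0.00195), H2-Eb1 by 1.90 ± 0.529 (adjusted p = 0.00199) and Ciita by 1.44 ± 0.555 (adjusted p = 0.00628). For H2-Aa and H2-Eb1 these groups did not overlap, as in either direction for 59.8% of all genes. Cd74 was higher by 1.13 ± 0.571 (adjusted p = 0.0434), which was 0.69 without library 13 (adjusted p = 0.211) and was also lost without library 5, 6, 7 or 15. H2-DMb1 changed by -0.69 ± 0.277 (adjusted p = 0.0214), which was lost without library 7, 8, 14 or 16. H2-Ab1 differed by -0.14 ± 0.412 (adjusted p = 0.708) and H2-DMa by -0.21 ± 0.144 (adjusted p = 0.0751). The 4 comparisons share libraries, so their results are not independent of one another.

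By mean TPM, H2-Aa ran from TPdh-/- TM (33.4) through TPdh-/- TE (8.98) and WT TM (8.45) to WT TE (1.5). The middle pair overlapped, and the steps on either side did not. H2-Eb1 kept the same order and the same overlap (13, 3.38, 3.27 and 0.615 TPM). For Cd74 the order was again the same (44.2, 19.6, 11.8 and 2.36 TPM), with WT TE alone apart from its neighbour. H2-Ab1 ran from WT TE (16.3) through TPdh-/- TE (11.6) and TPdh-/- TM (11.4) to WT TM (3.54), and each neighbour in that order overlapped the next. H2-DMa and H2-DMb1 were highest in TPdh-/- TE (47.5 and 2.25 TPM) and lowest in WT TM (33.8 and 0.412 TPM). For Ciita, TPdh-/- TM (0.615) was followed by WT TM (0.23), TPdh-/- TE (0.198) and WT TE (0.0825), with overlap at every step.

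Within single libraries, H2-Aa, H2-Eb1 and Cd74 kept nearly fixed proportions. The ratio of H2-Eb1 to H2-Aa in TPM was 0.334 to 0.577 over all 16 libraries, although H2-Aa itself ran from 0.69 to 57.05 TPM. The ratio of Cd74 to H2-Aa was 1.44 to 1.91 in WT TE, 2.04 to 2.25 in TPdh-/- TE, 1.21 to 1.47 in WT TM and 1.17 to 1.45 in TPdh-/- TM, so it was highest in the TPdh-/- TE libraries. H2-Ab1 to H2-Aa was 7.32 to 26.8 in WT TE, 0.689 to 2.59 in TPdh-/- TE, 0.324 to 0.591 in WT TM and 0.275 to 0.394 in TPdh-/- TM. Thus the beta chain transcript of I-A exceeded the alpha chain transcript in every WT TE library, and the alpha chain exceeded the beta chain in every TM library. These ratios are descriptions without a test. The average transcript length that RSEM used for H2-Ab1 was 1116 to 1176 bases in WT TE, 1098 to 1158 bases in TPdh-/- TE, 957 to 1124 bases in WT TM and 1069 to 1161 bases in TPdh-/- TM.

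Over the 16 libraries, log2 CPM of H2-Aa correlated with that of H2-Eb1 (Pearson r = 0.99), Cd74 (r = 0.98) and Ciita (r = 0.94), and these points share the group differences given above. H2-Ab1 correlated with H2-Aa at r = -0.16 over all 16, but within WT TM at 0.96 and within TPdh-/- TM at 0.99, each over 4 libraries. Its r with H2-DMa was 0.71 and with H2-DMb1 0.74 over the 16. In each TM group H2-Aa, H2-Ab1, H2-Eb1 and H2-DMa therefore varied together from library to library. In the TE groups the r of H2-Ab1 with H2-Aa was lower, at 0.30 in WT TE and 0.14 in TPdh-/- TE. Each of these is over 4 libraries, too few to tell a weak tie from none.

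**Figure D3:**
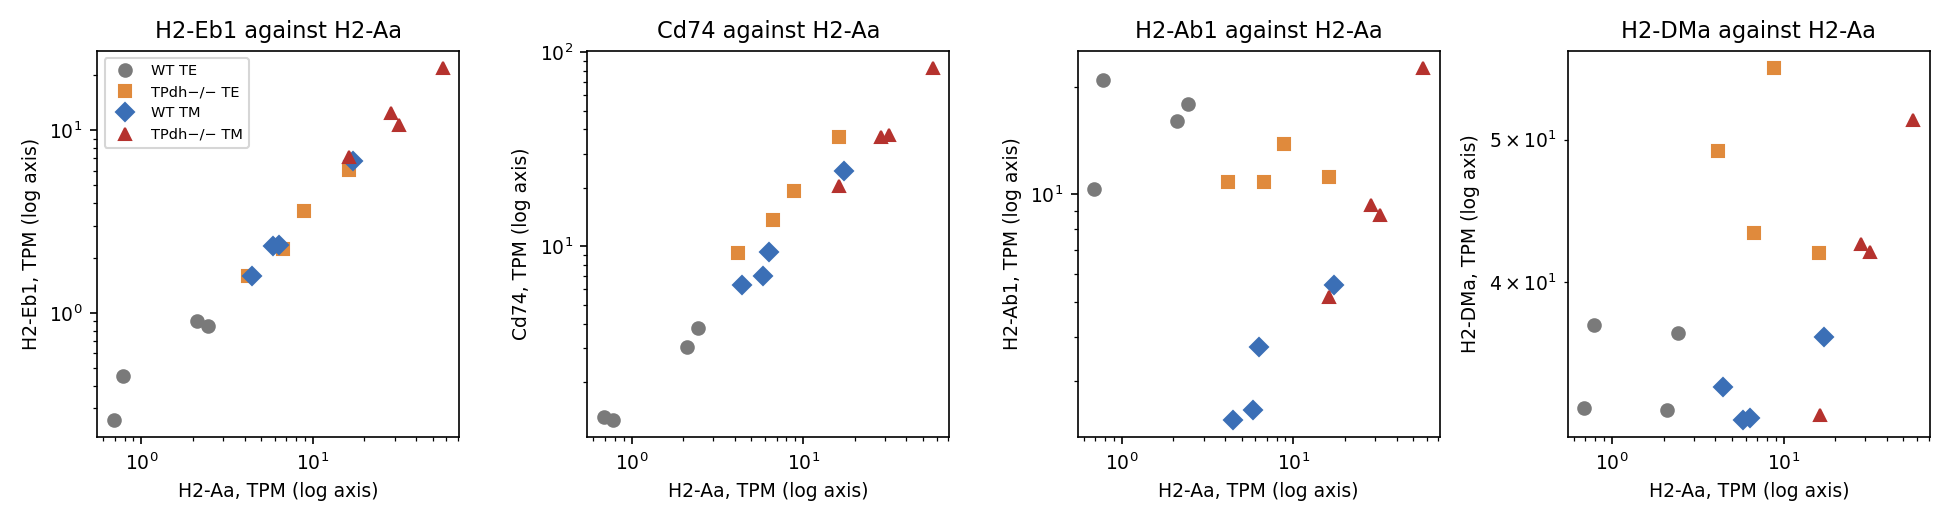
TPM of H2-Eb1, Cd74, H2-Ab1 and H2-DMa against TPM of H2-Aa (log axes), 1 point per library, by group. H2-Eb1 and Cd74 lie near 1 line through all groups (H2-Eb1 at 0.334 to 0.577 of H2-Aa), while the WT TE libraries lie far above the TM libraries for H2-Ab1 (7.32 to 26.8 times H2-Aa).

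The composition of the machinery shifted with these changes. Summed over the 6 genes other than Ciita, the level was 46.2 to 63.2 TPM in WT TE, 76.9 to 115 in TPdh-/- TE, 49.3 to 91.2 in WT TM and 82.5 to 237 in TPdh-/- TM. H2-DMa made up 58.5 to 71.1% of that sum in WT TE and 21.7 to 39.4% in TPdh-/- TM. Cd74 made up 2.08 to 6.04% in WT TE and 24.9 to 34.8% in TPdh-/- TM. H2-Ab1 went from 22.4 to 33.9% in WT TE to 4.75 to 6.89% in WT TM.

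Of the 5 other class II chain genes in the files, 4 were tested. H2-Eb2, a second I-E beta-type gene that shares the motif pair printed above, had low levels, with means of 0.0775 TPM in WT TE and 0.71 TPM in TPdh-/- TM. It was higher in TM than in TE by 1.84 ± 0.543 in WT (edgeR adjusted p = 0.0126) and by 2.52 ± 0.683 in TPdh-/- (adjusted p = 0.000766), and neither genotype difference was called. H2-Oa and H2-Ob encode the DO heterodimer, which holds DM in check and is typical of B cells. Both were well expressed everywhere, H2-Oa at means of 43.2 to 58.6 TPM and H2-Ob at 11.5 to 31 TPM. H2-Ob was higher in TM by 1.09 ± 0.202 in WT (adjusted p = 7.18e-05) and 0.85 ± 0.24 in TPdh-/- (adjusted p = 0.000703), with no genotype call. H2-Oa was called in no comparison, and it shares 22.8% of its exonic bases with BC051537.

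Of the 7 DNA-binding factors of the class II promoter (Rfx5, Rfxank and Rfxap of the RFX complex, Nfya, Nfyb and Nfyc of NF-Y, and Creb1), edgeR called 0 in the TM genotype comparison. There 2 had an unadjusted p under 0.05, DESeq2 called 0, and the median log2 difference was -0.04. In TE, 3 were called lower and none higher, namely Creb1 by -0.32 ± 0.0328 (edgeR adjusted p = 2.98e-05), Rfxap by -0.29 ± 0.0659 (adjusted p = 0.0054) and Nfyc by -0.20 ± 0.0538 (adjusted p = 0.0168). Of all genes tested, 18.3% were called in either direction by genotype in TM, and 14.3% were called lower in TE. All 7 factors were expressed at group means of 12 to 58.2 TPM. Rfxank was higher in TM than in TE by 0.25 ± 0.0718 in WT (adjusted p = 0.00579).

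Some genes of the interferon gamma pathway upstream of Ciita were called by genotype. In TM 5 of 8 were called higher and none lower (median 0.31), beside 11.0% of all genes called higher and 7.27% lower. In TE 2 were called higher and 1 lower (median 0.08), beside 17.3% of all genes called higher and 14.3% lower. An unadjusted p under 0.05 was found for 6 of 8 in TM and 8 of 8 in TE, and DESeq2 called 6 in TM and 5 in TE. Irf1, a transcription factor that binds the inducible Ciita promoter, was at 117.53 to 139.34 TPM in the WT TM libraries and 192.52 to 245.62 TPM in TPdh-/- TM, a difference of 0.89 ± 0.0753 (edgeR adjusted p = 1.94e-07). In TE it differed by -0.15, which was not called, and its interaction was 1.05 ± 0.104 (adjusted p = 3.06e-06). Ifngr2, the signalling chain of the receptor, was higher by 0.44 ± 0.0767 in TM (adjusted p = 0.00108) and 0.97 ± 0.0721 in TE (adjusted p = 2.46e-07). Ifngr1, the ligand-binding chain, was higher by 0.18 ± 0.0458 in TM (adjusted p = 0.0186), and Jak1, a receptor kinase, was lower in TE (-0.56 ± 0.0555, adjusted p = 1.29e-06).

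Ifng, the cytokine gene, is named here after its values were seen. It was at 7.95 to 14.85 TPM in WT TM and 18.77 to 24.45 TPM in TPdh-/- TM (1.08 ± 0.184, edgeR adjusted p = 0.000888). In TE it was not called. In WT TE the libraries had the same order for Ifng as for H2-Aa, and in the other 3 groups they did not. TPdh-/- TM library 16 had the highest Ifng (24.45 TPM) and the lowest H2-Aa and Ciita of its group. Library 8 had the highest H2-Aa, Cd74 and Ciita among TPdh-/- TE libraries and the lowest Ifng there (5.68 TPM). The part of interferon gamma in the class II differences was not tested.

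Among regulators of Ciita tied to a cell lineage, 4 of 5 were tested. Irf8 and Prdm1 were called higher in TPdh-/- TM and none was called lower (median 1.11), and in TE Irf4 and Prdm1 were called lower and none higher (median -0.07). The shares of all genes were 11.0% higher and 7.27% lower in TM, and 17.3% higher and 14.3% lower in TE. Irf8, a myeloid and B cell factor, was at 2.63 to 3.72 TPM in WT TM and 5.26 to 7.32 TPM in TPdh-/- TM (1.10 ± 0.118, edgeR adjusted p = 2.89e-05). Irf8 was higher in TE, at means of 12.1 TPM in WT and 13.9 TPM in TPdh-/-, with no genotype call there. In WT it was lower in TM than in TE (-2.19 ± 0.0954, adjusted p = 5.51e-10), unlike Pax5. Prdm1, which encodes Blimp-1, a repressor of Ciita in plasma cells, rose by 1.62 ± 0.314 in TM (adjusted p = 5.76e-05) and fell in TE, by -0.88 ± 0.13 (adjusted p = 0.00209). Irf4, a lymphocyte factor, was lower in TPdh-/- TE (-0.22 ± 0.0623, adjusted p = 0.0265). Pax5, a B cell factor, was called between TM and TE in both genotypes (3.16 ± 0.468 in WT, adjusted p = 0.00032) and not between genotypes. Spi1, which encodes the myeloid and B cell factor PU.1, did not pass the filter on low counts and had a mean of at most 0.228 TPM.

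Of 7 genes for class II antigen processing, 3 were called higher in TPdh-/- TM and none lower (median 0.10). In TE 3 were called higher and 3 lower (median -0.08). Among all genes tested, 11.0% were called higher and 7.27% lower in TM, and 17.3% higher and 14.3% lower in TE. Ctss encodes cathepsin S, which cuts the invariant chain, and was higher by 0.43 ± 0.0624 in TM (edgeR adjusted p = 0.000121) and 0.57 ± 0.0674 in TE (adjusted p = 4.38e-06). Ctsl, cathepsin L, was higher by 0.65 ± 0.0739 in TM (adjusted p = 0.00135) and 0.80 ± 0.175 in TE (adjusted p = 0.000136). Ctsd, cathepsin D, was lower in TE (-0.40 ± 0.0477, adjusted p = 6.99e-05), and Ifi30, a lysosomal thiol reductase, was lower in TM than in TE of WT (-1.33 ± 0.0665, adjusted p = 1.28e-09). Lgmn, an asparagine endopeptidase named after its values were seen, was higher by 1.35 ± 0.374 in TM (adjusted p = 0.0255) and 2.08 ± 0.413 in TE (adjusted p = 0.000691), with its highest value, 1.87 TPM, in library 8.

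The turnover list holds March1 and March8, ubiquitin ligases that remove class II from the cell surface, and Cd83, which opposes March1. In TM 2 of the 3 were called higher and none lower, and in TE 2 were called higher and 1 lower. Beside these stand 11.0% of all genes called higher in TM, and 17.3% called higher and 14.3% lower in TE. Cd83 was at 0.04 to 0.11 TPM in WT TE and 0.58 to 0.99 TPM in TPdh-/- TE, and at 0.47 to 0.92 TPM in WT TM and 1.16 to 2.65 TPM in TPdh-/- TM. It was higher in TPdh-/- by 3.20 ± 0.338 in TE (edgeR adjusted p = 3.41e-06) and 1.64 ± 0.312 in TM (adjusted p = 0.000366). March1 was higher by 1.33 ± 0.289 in TE (adjusted p = 0.0464), and in TM it differed by 1.05, which was not called. March8 moved by genotype in opposite directions, with 0.51 ± 0.171 in TM (adjusted p = 0.0132) and -0.43 ± 0.101 in TE (adjusted p = 0.0159), and its interaction was 0.95 ± 0.199 (adjusted p = 0.0022).

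Of the 4 costimulatory genes of antigen-presenting cells, 3 were called higher in TPdh-/- TM (Cd80, Cd86 and Icosl). In TE 3 were called higher (Cd86, Cd40 and Icosl) and Cd80 was called lower. All genes tested had shares of 11.0% called higher in TM, and 17.3% called higher and 14.3% lower in TE. Icosl, the ligand of ICOS, was higher by 1.16 ± 0.187 in TM (edgeR adjusted p = 6.06e-05) and 1.25 ± 0.127 in TE (adjusted p = 4.81e-06). Cd86 was higher by 0.97 ± 0.262 in TM (adjusted p = 0.00175) and 0.63 ± 0.152 in TE (adjusted p = 0.014). Of the T cell proteins that bind class II, Lag3 was lower by genotype in TM (-0.73 ± 0.142, adjusted p = 0.000935) and in TE (-2.26 ± 0.159, adjusted p = 4.42e-09). Cd4 was higher in both (1.33 ± 0.264 in TM, adjusted p = 0.0219, and 2.15 ± 0.567 in TE, adjusted p = 0.00369) at means of at most 0.365 TPM. The Cd74 ligand Mif was lower in TE (-0.36 ± 0.139, adjusted p = 0.0169), as was Cd44 (-0.40 ± 0.121, adjusted p = 0.00828), and the coreceptors Cd44 (0.34 ± 0.122, adjusted p = 0.0368) and Cxcr4 (0.47 ± 0.0505, adjusted p = 0.000181) were higher in TPdh-/- TM.

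**Figure D4:**
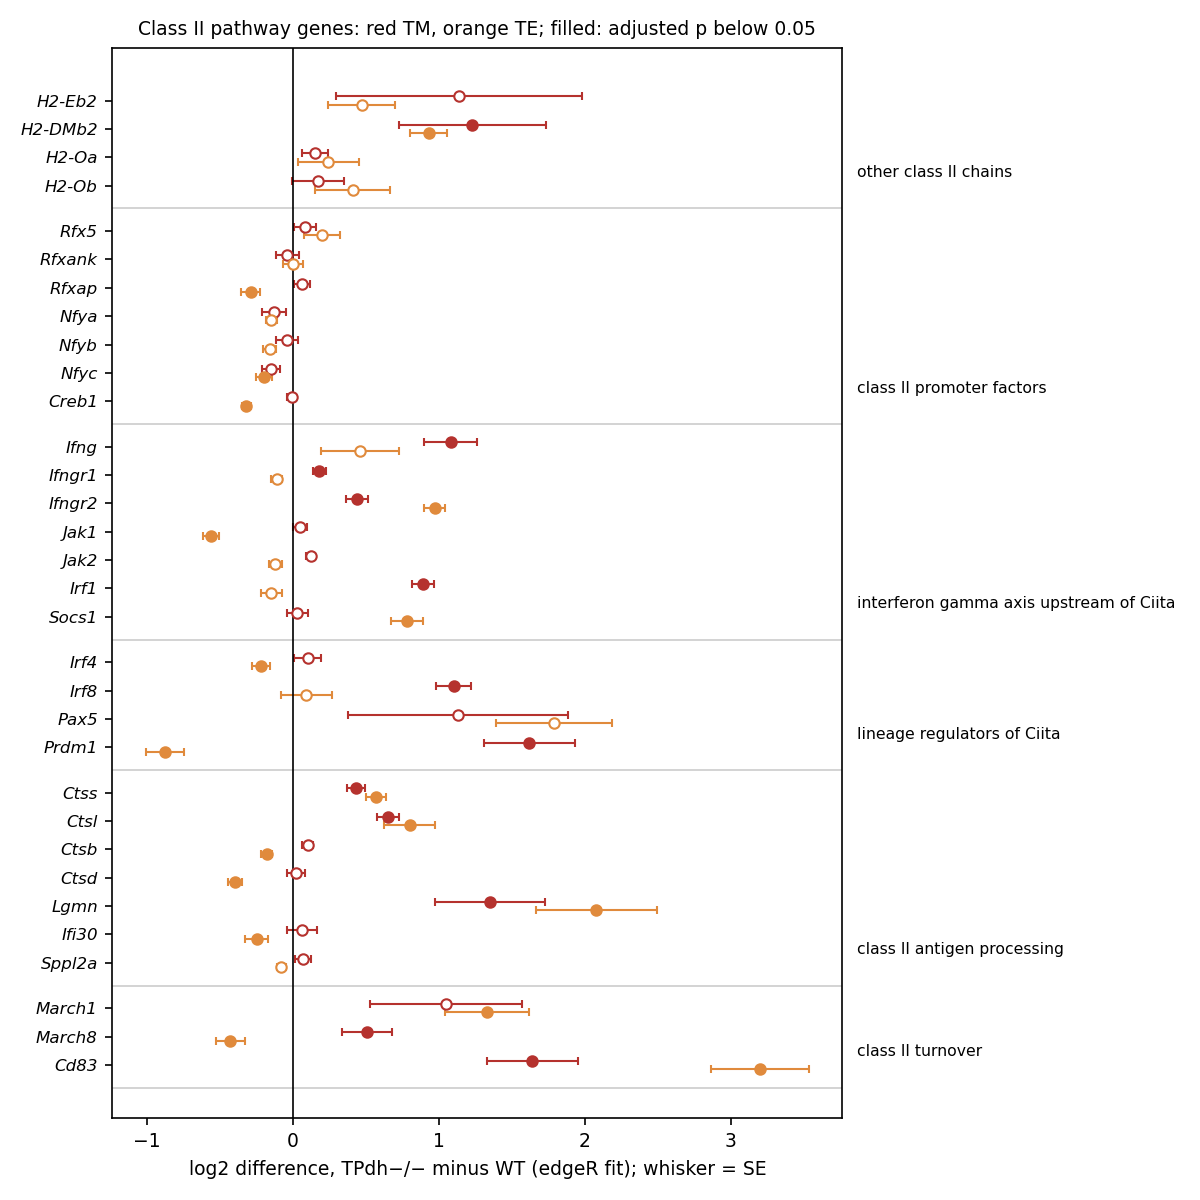
Log2 genotype differences (TPdh-/- minus WT) from edgeR for tested genes of 6 class II pathway lists, in TM and TE, with SE as whiskers; filled points have an adjusted p under 0.05. Cd83 and Lgmn are filled in both cell types (3.20 and 2.08 in TE), and no promoter factor is filled in TM.

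Because cells of other types can carry class II, markers of those types were read in the same libraries. In bulk RNA, fewer cells of a type and less RNA per cell cannot be told apart. All 12 B cell markers were above 0 in every library. Ighm, the IgM constant region, was at 333.96 to 466.23 TPM throughout, and the other 11 were summed without it after its values were seen. That sum was 10.3 to 11.5 TPM in WT TE, 11.3 to 15.3 in TPdh-/- TE, 18.6 to 36.8 in WT TM and 14.7 to 65.3 in TPdh-/- TM. Most of it in TE was Cd79b (means of 6.55 TPM in WT and 6.79 in TPdh-/-) and Ighd (3.17 and 2.5 TPM). By genotype in TE these differed by -0.07 and -0.50, not called, so the sum there says little about the lower markers. Within TM the sum was highest in the libraries with the highest H2-Aa of their group, at 36.8 TPM in WT library 10 and 65.3 TPM in TPdh-/- library 13, and lowest in TPdh-/- library 16.

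Of the B cell markers, edgeR called 1 of 12 higher between genotypes in TM (Ms4a1, which encodes CD20, by 1.53 ± 0.681, adjusted p = 0.0336) and 0 of 12 in TE. An unadjusted edgeR p under 0.05 was found for 6 of 12 in TM and 2 of 12 in TE, and DESeq2 called 1 in TM and 2 in TE. By genotype, 11.0% of all genes were called higher in TM and 17.3% in TE. The medians of the 12 markers were 1.08 in TM and 1.00 in TE. Between TM and TE, 9 were called higher and 1 lower in WT, and 11 higher in TPdh-/-. Of all genes, 34.3% were called higher and 34.3% lower in WT, and 33.0% higher and 34.7% lower in TPdh-/-. Per unit of Cd79a, a chain of the B cell receptor complex, H2-Aa was 2.68 to 3.65 in WT TM and 5.62 to 9.26 in TPdh-/- TM. In TE the same ratio was 1.5 to 3.5 in WT and 4.26 to 42.6 in TPdh-/-, with library 8 far above the rest. The part of B cells in the class II differences was not tested.

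Over all genes tested, 11.0% were called higher by genotype in TM, and 17.3% higher and 14.3% lower in TE. Of the 12 macrophage and monocyte markers, 7 were tested, and 6 were called higher in TPdh-/- TM and 4 in TPdh-/- TE, with 1 lower there. Their sum was 10.1 to 13.8 TPM in WT TE, 14.2 to 23.7 in TPdh-/- TE, 5.68 to 6.69 in WT TM and 22.8 to 38.6 in TPdh-/- TM. Its largest part was Cd68 in WT TE (mean 8.23 TPM) and Lyz2 in TPdh-/- TM (mean 24.1 TPM). Among the WT TM libraries, library 10 (17.21 TPM of H2-Aa) had a sum of 6.58 TPM. Lyz2, the lysozyme gene of myeloid cells, was higher by 3.15 ± 0.21 in TM (edgeR adjusted p = 6.37e-07) and 2.09 ± 0.44 in TE (adjusted p = 4.85e-05). Of the 10 dendritic cell markers, 5 were tested, 4 were called higher in TPdh-/- TM, and 2 were called higher and 1 lower in TPdh-/- TE. Their sum was 62.7 to 80.2 TPM in WT TE, 78.6 to 94.3 in TPdh-/- TE, 115 to 131 in WT TM and 131 to 161 in TPdh-/- TM, most of it Ccr7, which T cells also express. Cd209a was at 0 in all 16 libraries, and Siglech and Flt3 did not exceed 0.01 and 0.04 TPM. Batf3 was at 0.36 to 0.48 TPM in WT TE and 2.92 to 9.13 TPM in TPdh-/- TE (3.45 ± 0.399, adjusted p = 0.000197). By genotype in TE, Zbtb46 was called higher as well (1.69 ± 0.207, adjusted p = 0.00238), while Xcr1 was called lower (-1.67 ± 0.188, adjusted p = 3.68e-06). Itgax (-0.74) and Ccr7 (0.18) were not called there. The 4 called higher in TM were Itgax (3.12 ± 0.411, edgeR adjusted p = 6.23e-06), Batf3 (2.96 ± 0.774, adjusted p = 0.00327), Zbtb46 (2.03 ± 0.425, adjusted p = 0.000861) and Xcr1 (0.83 ± 0.249, adjusted p = 0.00978). The part of myeloid cells was not tested.

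**Figure D5:**
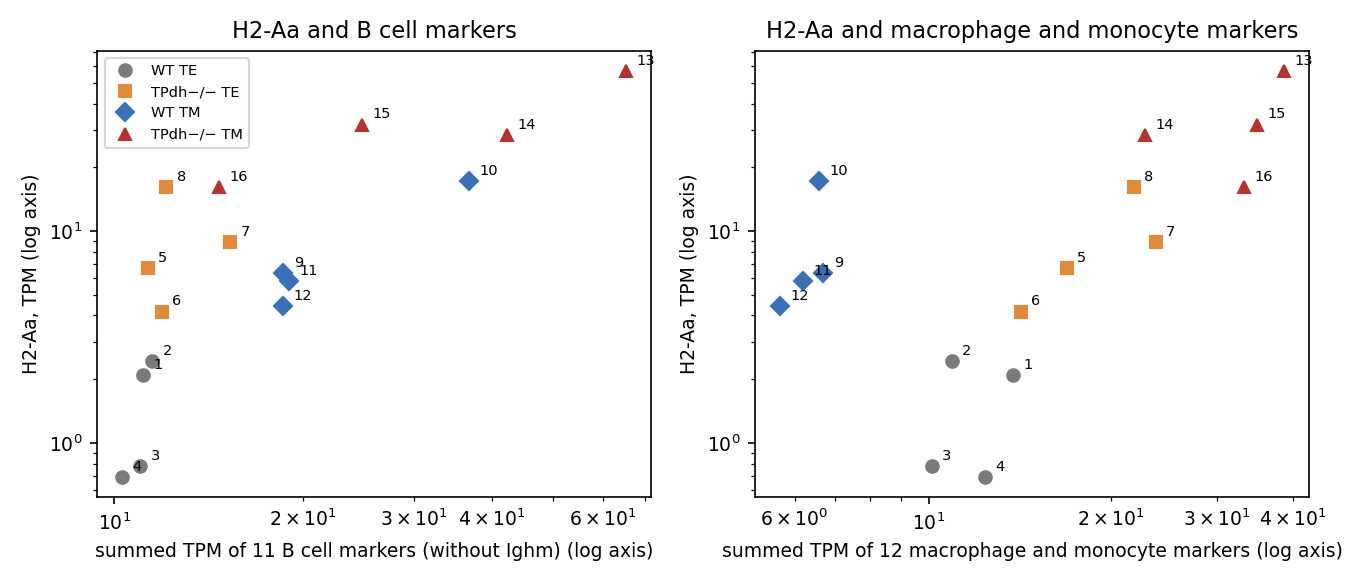
TPM of H2-Aa against the summed TPM of 11 B cell markers (left, without Ighm) and of 12 macrophage and monocyte markers (right), log axes, 1 point per library with its number. Among TM libraries H2-Aa is highest where the B cell sum is highest (library 13, 65.3 TPM), while library 8 has 16.18 TPM of H2-Aa at a B cell sum of 12.1 TPM. In TE most of the B cell sum is Cd79b and Ighd.

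Other marker lists held genes called by genotype as well. For comparison, 11.0% of all genes were called higher and 7.27% lower in TM, and 17.3% higher and 14.3% lower in TE. Of the plasma cell markers, 2 of 6 tested were called higher in TPdh-/- TM and 4 in TE, and their sum was 52.5 to 60.5 TPM in WT TE, 91.4 to 163 in TPdh-/- TE, 38.8 to 62 in WT TM and 82.9 to 207 in TPdh-/- TM. Its largest part was Xbp1 in WT TE (mean 49.7 TPM) and Igkc in TPdh-/- TM (mean 91.5 TPM). All 6 gamma-delta T cell markers were called higher in TPdh-/- TM and in TPdh-/- TE, with sums of 56.1 to 101 TPM in the WT libraries and 159 to 317 TPM in the TPdh-/- libraries. Of 8 NK cell markers, 8 were called higher in TPdh-/- TM, and 5 higher and 1 lower in TPdh-/- TE. Their sum was 1623 to 1818 TPM in WT TE, 708 to 893 in TPdh-/- TE, 30.2 to 108 in WT TM and 479 to 1129 in TPdh-/- TM. Most of that sum was Gzma, a granzyme that cytotoxic T cells also make, with means of 1722 TPM in WT TE, 825 in TPdh-/- TE, 59.8 in WT TM and 671 in TPdh-/- TM. Gzma was lower by genotype in TE (-1.21 ± 0.0841, edgeR adjusted p = 0.00824) and higher in TM (3.49 ± 0.551, adjusted p = 2.20e-06). The 8 CD8 T cell markers summed to 4881 to 5682 TPM in WT TE, 4034 to 4533 in TPdh-/- TE, 5751 to 6210 in WT TM and 4896 to 4937 in TPdh-/- TM, and 4 were called lower by genotype in TM and 6 in TE, with none higher. Cd8b1, the CD8 beta chain, was lower in TM (-0.69 ± 0.0787, adjusted p = 6.23e-07) and in TE (-0.73 ± 0.0332, adjusted p = 2.29e-07), and Cd8a was lower in TM (-0.62 ± 0.0991, adjusted p = 3.77e-05). The 4 CD4 T cell markers summed to 3.49 to 5.26 TPM in WT TM, 7.15 to 10 in TPdh-/- TM, 10.5 to 17 in WT TE and 15.8 to 24.6 in TPdh-/- TE, and 2 were called higher by genotype in each. Zbtb7b made up most of this sum in each group (means of 2.83 to 13.6 TPM), while Cd4 itself was at means of 0.0275 to 0.365 TPM. The 7 innate lymphoid and mast cell markers summed to at most 7.58 TPM in any library, and 2 of 4 tested were called higher by genotype in TM and in TE. Their part in the class II differences was not tested.

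Among the genes whose log2 CPM was most like the mean standardised profile of the 6 genes other than Ciita, over 16 libraries, were Cfp (Pearson r = 0.898), Armcx2 (0.898), Acadsb (0.897), Slc25a36 (0.892) and Psd2 (0.882). That mean mixes unlike profiles (H2-Aa with H2-Ab1 at r = -0.16 and with H2-DMa at 0.20), so it need not follow any single gene of the 6. Cfp encodes properdin of the complement system and was higher in TPdh-/- by 0.95 ± 0.144 in TM (edgeR adjusted p = 0.000709) and 0.64 ± 0.164 in TE (adjusted p = 0.00771). The genes most like Ciita were Ttll3 (0.942), Agbl3 (0.920), Syk (0.914), Cep290 (0.913), Cd22 (0.908) and Ctxn1 (0.898). Syk, the kinase of B cell and myeloid receptors, was higher by 1.90 ± 0.328 in TM (adjusted p = 2.53e-05) and 1.01 ± 0.175 in TE (adjusted p = 0.00625). Cd22 encodes an inhibitory receptor of B cells and was not called by genotype (1.07 ± 0.793 in TM, adjusted p = 0.167). These likenesses are descriptions over libraries that share the group differences.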

How the data were processed

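Poly(A) RNA of the 16 libraries was read as the RSEM gene tables that the authors deposited. Per the labels and the processing notes, STAR 2.7.6a and RSEM 1.3.3 were used with GRCm38, and DESeq2 is named without a version. The deposited values used were expected counts, which RSEM estimates by splitting reads between similar genes, and TPM, which the authors scaled per library and transcript length. Of 55401 identifiers, 55141 (99.5%) matched names. Totals of 53007257 to 73507566 counts per library set the precision.

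Expected counts were rounded, filtered (filterByExpr, minimum count 10, minimum total 15), scaled by TMM and tested with edgeR 4.0.16 (R 4.3.3), with 1 mean per group over all 16 libraries. Benjamini-Hochberg adjustment covered all 15277 genes tested. Alternatives were RLE scaling, no filter, a mean of at least 1 CPM, limma 3.58.1 on log2 CPM and on log2(TPM + 0.1), DESeq2 1.42.0, and leaving out each library. The fold change from log2(TPM + 0.1) understates changes of low genes.

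Groups came from the genotype and cell type labels. Members, lists and tests were chosen with earlier results of these data known. Genes named were the 7 members in every comparison, up to 4 genes per list called in any comparison by smallest adjusted p and any at 0, and the 6 tested genes with the highest Pearson r with the mean profile of the members and with Ciita. Promoter sequences came from RefSeq (GRCm38.p6), and gene positions and exons from GENCODE M21. Marker lists covered B, plasma, dendritic, macrophage, CD4 T, NK, gamma-delta T, innate lymphoid and mast, and CD8 T cells. Some genes that these rules select are not reported here.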

Additional observations from a re-analysis of the deposited data

Results flagged for a closer look

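Within groups of 4 libraries, a library far from the other 3 was found in 5 of 28 gene and group combinations by Dixon's test, which chance alone flags in about 1 in 20 groups. The combinations are not independent, so the count cannot be read against that rate. For log2 CPM within WT TM, H2-Aa correlated with H2-Eb1 at r = 1.00 and with Cd74 at 0.99. In WT TM, library 10 stood above the rest for H2-Aa (17.21 TPM), H2-Eb1 (6.82 TPM) and Cd74 (24.30 TPM), and its 11 B cell markers without Ighm summed to 36.8 TPM against 18.6 to 19 TPM in libraries 9, 11 and 12. Without library 10 the genotype differences in TM were the highest of any left-out library, up to 2.58 for H2-Aa, 2.75 for H2-Eb1 and 2.54 for Cd74. In TPdh-/- TM, library 13 stood above the rest for H2-DMb1 (1.98 TPM), and in TPdh-/- TE library 7 did for H2-Ab1 (13.80 TPM).

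The genotype effect on H2-Ab1 differed between TM and TE by 2.41 on the log2 scale (edgeR interaction, adjusted p = 0.00214). Leaving out any 1 library gave values from 1.95 to 2.76, with adjusted p of at most 0.00566. Cells of other types, for which markers also differed between these groups, were not tested as a cause.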

How the results depend on the processing

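No paired analysis was possible because the labels number the libraries 1 to 16 once, so that no number is shared between groups. The calls of H2-Aa, H2-Ab1, H2-Eb1, H2-DMb1 and Cd74 for genotype in TM, and those of H2-Aa, H2-Eb1, H2-DMb1 and Cd74 for genotype in TE, were made in every alternative run. The counts of called genes ranged with 1 library left out from 5 to 7 for genotype in TM, 4 to 5 for genotype in TE, 5 to 7 for TM against TE in WT and 3 to 5 for TM against TE in TPdh-/-, the 3 being without library 7, and the interaction was called for 1 gene, H2-Ab1, each time. With limma on log2 TPM, Ciita (0.99, adjusted p = 0.0775) and H2-DMa (0.30, adjusted p = 0.113) lost their TM genotype calls. Cd74 between TM and TE of TPdh-/- was not called by DESeq2 (1.12, adjusted p = 0.095) or limma on log2 TPM (1.17, adjusted p = 0.0569). Leaving out libraries 5 and 12 together, chosen after seeing the data, left 5 genes called for genotype in TM, without Ciita (1.23, adjusted p = 0.0718) and H2-DMa (0.29, adjusted p = 0.0862). The causes were not tested.

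Signs turned only for differences near 0 or small ones. The interaction turned for H2-Aa (-0.77 to 0.18 with 1 library left out, above 0 at 0.02 without library 8 and 0.18 without library 10), H2-Eb1 (-0.89 to 0.25, above 0 without library 10), Ciita (-0.15 to 0.70, below 0 without library 13, and -0.06 without libraries 5 and 12) and H2-DMa (-0.13 with limma on log2 TPM, -0.04 without libraries 5 and 12, and -0.04 to 0.13 with 1 library left out, below 0 without library 5, 8 or 13). H2-Ab1 between TM and TE of TPdh-/- was -0.61 to 0.10, above 0 without library 16. With limma on log2 TPM, Rfxank (TM against TE in TPdh-/-) was -0.05, Nfyc (TM against TE in WT) 0.13 and Ctsb (TM against TE in WT) 0.09, and none of these was called.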
